A study of Mus musculus with 10 samples.

Results

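Transglutaminases and peptidylarginine deiminases, 2 families of enzymes that modify the proteins of the outer skin, were followed in keratinocytes from mouse back skin. They were chosen by name as Tgm1, Tgm2, Tgm3, Tgm5, Padi1, Padi2, Padi3 and Padi4, which makes 8 of the 17983 genes listed in the series. The libraries were 3 from knockout mice under oil/acetone, 2 from knockout mice under water, 3 from control mice under oil/acetone and 2 from control mice under water. Knockout mice are labelled Gsdma1KO/KO;Gsdma3fx/fx;K14-Cre, a constitutive loss of Gsdma1 joined to a floxed Gsdma3 that is removed by Cre under the keratin 14 promoter, which is active in epidermal and follicular keratinocytes. Control mice are labelled wild type, with no Cre or floxed allele named. Back skin was rubbed 2 times a day for 3 days with acetone and olive oil mixed 4 to 1, or with water, and taken on day 5. Dispase lifted the epidermis, and trypsin released its cells. Neither the age of the mice nor whether each library is a separate animal is given in the sources used here. The p-values therefore speak only of variation among these libraries, and some of it may be technical.

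Transglutaminases join the side chains of glutamine and lysine and so weld proteins into the cornified envelope, the insoluble shell that replaces the membrane of a dying keratinocyte. Peptidylarginine deiminases turn arginine into citrulline, which removes a positive charge. In the epidermis and hair follicle this loosens filaggrin and keratins or prepares trichohyalin for crosslinking. Both kinds of enzyme need calcium, which is high in the upper epidermis.

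Values are normalised read counts, and the libraries held 15914663 to 21812292 reads. Gsdma3 had 1 read over the 3 knockout oil/acetone libraries and 3 reads over the 2 knockout water libraries, against 296 and 367 reads over the control libraries of the same treatments. Gsdma, the gene that the label calls Gsdma1, averaged 497 ± 308 normalised counts in knockout and 602 ± 113 in control libraries under oil/acetone (SD, n = 3 each). Under water it averaged 170.1 ± 0.02 in knockout and 363 ± 232 in control libraries (SD, n = 2 each). A sum over the whole gene does not show which exons are present. Keratinocyte markers summed to 593376 to 996280 normalised counts in every library, so the label of the cells fits their markers. Control water replicate 2 stood apart from the rest on the second principal component (-50.6, against -27.0 to 43.7). On the first, which held 45.2% of the variance, it was at -4.09, within the range of the oil/acetone libraries (-71.1 to 19.4). The other water libraries were at 53.3 to 71.3 there. Transcripts of 4 Y-linked genes were at 0 in all 4 water libraries and summed to 3593 to 4976 in all 6 oil/acetone libraries. Treatment and this difference between the libraries cannot be told apart in any comparison of oil/acetone with water.

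Transglutaminase 3 rose under oil/acetone in both genotypes, and it was the 1 member called in each of them. Tgm3 makes the transglutaminase of differentiating epidermis and hair follicle, an inactive precursor that must be cut by a protease (chr2:130012349-130050399, plus strand, GRCm38). The 250 bases before its RefSeq start are shown because this gene carried the clearest difference, and they lie at chr2:130012090-130012339 on the plus strand of GRCm38.p6. Capitals mark matches to CCAAT on either strand, so that those on the opposite strand read from right to left as its complement. They also mark a match to the TATA motif TATAAA.
Tgm3: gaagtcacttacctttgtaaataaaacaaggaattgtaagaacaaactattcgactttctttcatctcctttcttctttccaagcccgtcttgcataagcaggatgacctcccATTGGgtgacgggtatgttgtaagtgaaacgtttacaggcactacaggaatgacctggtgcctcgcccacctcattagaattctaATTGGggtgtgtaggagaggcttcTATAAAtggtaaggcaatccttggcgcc
Of 32851 promoter windows of this length, 33.8% held the first motif and 12.4% the second on either strand, so neither match is rare.

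Tgm3 had 812, 1098 and 846 normalised counts in knockout oil/acetone libraries, against 224 and 237 in knockout water libraries. It had 933, 1212 and 2007 in control oil/acetone libraries, against 368 and 275 in control water libraries. All 6 oil/acetone libraries lay above all 4 water libraries. Averaged over genotypes the log2 difference was 2.01 ± 0.20 (SE), a 4.02-fold higher level (95% interval 2.94 to 5.50; limma, adjusted p = 0.00144). The difference was 1.98 ± 0.29 in knockout (adjusted p = 0.00946) and 2.04 ± 0.29 in control libraries (adjusted p = 0.0474). The 2 responses differed by -0.06 (95% interval -0.97 to 0.84, limma adjusted p = 0.959), which leaves room for a difference of almost 1 on the log2 scale either way. The averaged call held in all 19 alternatives, with adjusted p up to 0.0134. The knockout call was lost without knockout water replicate 1 (adjusted p = 0.1003) or replicate 2 (adjusted p = 0.0883). The control call held in 8 of 20 alternatives, and without control water replicate 2 its difference was 1.83 (adjusted p = 0.123). Red blood cell markers (5 of 5 found) moved with the treatment too, with sums of 4427 to 27622 normalised counts in oil/acetone libraries and 1175 to 6507 in water libraries, and their part was not tested. The sum of keratinocyte markers (6 of 6 found) moved with the treatment as well. It was 696373 to 996280 in oil/acetone libraries, above all 4 water libraries at 593376 to 649556. On average over genotypes 5 of the 6 were higher and 1 lower. Of these, 1 was called higher and 1 lower, against 6.88% and 5.92% of all genes. Trp63 averaged 10019 in knockout oil/acetone and 19263 in knockout water libraries, and 14936 and 17132 in the control ones. The part of keratinocyte numbers was not tested either.

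Among all 15958 genes tested, 13.4% were called under oil/acetone in knockout, 0.0627% in control and 12.8% averaged over genotypes. Of the 7 members that passed the filter on low values, 2 were called in knockout (Tgm3 and Padi4), 1 in control (Tgm3) and 1 on average (Tgm3). Padi1 did not pass, because the oil/acetone files do not list it. Genes with no overlap and a higher level under oil/acetone made up 28.9% of all genes in knockout, 12.3% in control and 4.51% over both genotypes. Among the members these were 3 in knockout (Tgm3, Padi3 and Padi4), 2 in control (Tgm1 and Tgm3) and 1 over both genotypes (Tgm3). Padi2 was the 1 member lower without overlap in control, where 11.9% of all genes were.

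**Figure D1:**
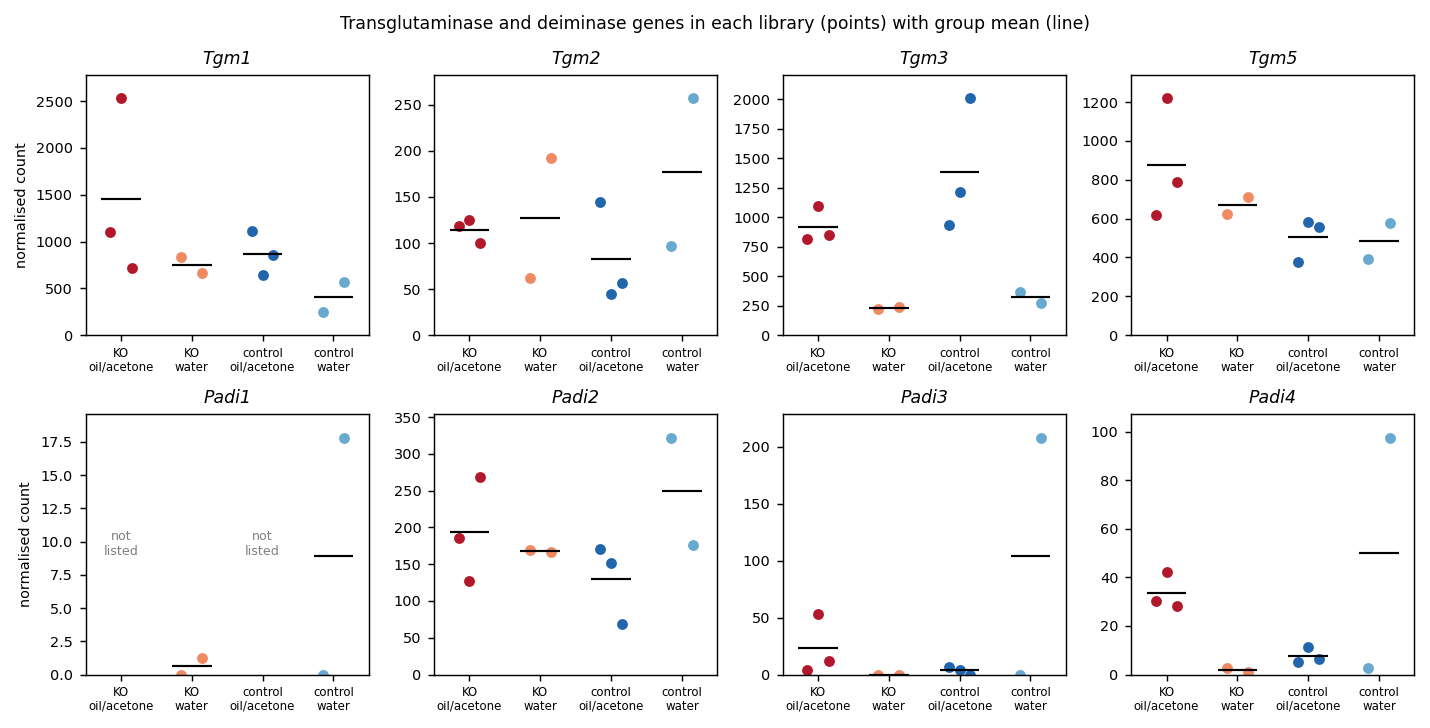
Normalised count of each of the 8 genes in each library (points) with the mean of the group (line), each panel on its own axis from 0, in knockout (KO) and control libraries under oil/acetone or water. The 6 oil/acetone libraries of Tgm3 lie at 812 to 2007, above the 4 water libraries at 224 to 368, while Padi1, Padi3 and Padi4 each have their highest point in control water replicate 2.

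The other epidermal transglutaminases did not pass the test. Transglutaminase 1, anchored in the keratinocyte membrane, starts the crosslinking of the envelope and its loss in humans causes lamellar ichthyosis (chr14:55700009-55713926, minus strand). Tgm1 had 1097, 2529.8 and 720.3 normalised counts in knockout oil/acetone libraries, against 833 and 667 in knockout water libraries. It had 1113, 643 and 857 in control oil/acetone libraries, against 252 and 564 in control water libraries. The control groups did not overlap, and the knockout groups did, with replicate 2 far above the others. The averaged log2 difference was 0.96 ± 0.34 (SE; limma, adjusted p = 0.0792), and it was called without control water replicate 2 (1.25, adjusted p = 0.0325) and by DESeq2 (1.02, adjusted p = 0.0196). In knockout the log2 difference was 0.75 (adjusted p = 0.282) and in control 1.16 (adjusted p = 0.350).

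Transglutaminase 5 also works in the upper epidermis, and its loss in humans causes acral peeling skin (chr2:121046111-121085841, minus strand). Tgm5 had 618, 1219 and 789 normalised counts in knockout oil/acetone libraries and 375, 583 and 558 in control oil/acetone libraries. The 2 genotypes did not overlap under oil/acetone, although the lowest knockout library was only slightly above the highest control library. Under water it had 624 and 712 in knockout libraries, against 392 and 579.9 in control libraries, again with no overlap. The log2 difference between genotypes was 0.76 ± 0.27 under oil/acetone, with adjusted p = 0.354 by limma. Under water it was 0.48 ± 0.33 with adjusted p = 0.963. Between treatments Tgm5 differed little, by 0.33 in knockout (95% interval -0.33 to 1.00) and 0.05 in control (95% interval -0.61 to 0.72).

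Transglutaminase 2, the widely expressed tissue transglutaminase of stroma, vessels and macrophages, was the lowest of the 4 (chr2:158116402-158146436, minus strand). Tgm2 had 118, 125 and 99.7 normalised counts in knockout oil/acetone libraries, against 61.7 and 192 in knockout water libraries. In control it had 145, 44.9 and 57.2 under oil/acetone, against 96.5 and 257 under water. The groups overlapped in each comparison, and the averaged log2 difference of -0.53 (95% interval -1.46 to 0.40) was not called. Its exons share 370 bases with Rprd1b on the opposite strand, and since the strand setting of the counting is not given, reads there cannot be told apart.

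Per length of transcript Tgm1 had the highest mean of the transglutaminases in both knockout groups, while in control the order of the means differed between treatments. In knockout oil/acetone libraries Tgm1 averaged 25.5, Tgm5 15.7 and Tgm3 12.6 RPKM (reads per length of merged exons and per depth of the library), against 12.3, 10.98 and 2.89 in knockout water libraries. In control oil/acetone libraries Tgm3 averaged 17.8, Tgm1 14.5 and Tgm5 8.53 RPKM, against 4.21, 7.10 and 8.43 in control water libraries. Spread over libraries was wide: the ranges of Tgm1 and Tgm3 overlapped within each oil/acetone group, so their order there is not separated, and in knockout water libraries those of Tgm1 and Tgm5 also overlapped. Of the summed RPKM of Tgm1, Tgm2, Tgm3 and Tgm5, Tgm3 made up 25.7%, 17.9% and 29.1% in knockout oil/acetone libraries, against 10.2% and 10.7% in knockout water libraries. In control it made up 31.0%, 42.4% and 51.3% under oil/acetone, against 28.3% and 13.7% under water. Tgm3 thus took a larger share under oil/acetone in every library of its genotype, and within a library this share does not depend on the scaling.

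Of the deiminases, Padi4 was the 1 that changed by the test. Peptidylarginine deiminase 4 carries a nuclear localisation signal, citrullinates histones and is best known from neutrophils (chr4:140745865-140774236, minus strand). Its promoter and that of its neighbour Padi3 are shown because the fitted differences of these genes between treatments had opposite signs in the genotypes. Tgm2 and Padi2 had opposite signs too, at 0.06 and 0.14 in knockout and -1.12 and -0.98 in control. For Padi3 and Padi4 the negative sign in control rests on control water replicate 2. Capitals mark the same motifs as above on both strands. They also mark TGANTCA, the AP-1 motif that the factors Fos and Jun bind. The Sp1 motif GGGCGG is marked too. The Padi4 window is chr4:140774204-140774453 and the Padi3 window chr4:140810649-140810898, both on the minus strand of GRCm38.p6.
Padi4: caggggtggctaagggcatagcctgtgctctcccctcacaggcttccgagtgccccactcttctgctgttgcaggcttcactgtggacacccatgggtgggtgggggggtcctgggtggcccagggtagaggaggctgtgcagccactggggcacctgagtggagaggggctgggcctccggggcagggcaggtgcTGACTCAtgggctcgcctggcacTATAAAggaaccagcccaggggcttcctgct
Padi3: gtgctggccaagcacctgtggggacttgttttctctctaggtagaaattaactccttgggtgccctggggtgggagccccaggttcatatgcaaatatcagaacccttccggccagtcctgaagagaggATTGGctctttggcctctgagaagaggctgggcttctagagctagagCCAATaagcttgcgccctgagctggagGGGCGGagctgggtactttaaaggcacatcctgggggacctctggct
The Padi4 window holds 1 AP-1 match and 1 TATA match, and the Padi3 window 2 CCAAT matches and 1 Sp1 match, with no motif in common. AP-1 matches stood in 6.75% of windows and Sp1 matches in 32.7%.

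Padi4 had 30.1, 42.3 and 28.2 normalised counts in knockout oil/acetone libraries, against 2.64 and 1.21 in knockout water libraries. It had 4.99, 11.5 and 6.60 in control oil/acetone libraries, against 2.87 and 97.6 in control water libraries. Knockout oil/acetone libraries were high throughout, control oil/acetone libraries low, and of the 2 control water libraries 1 was the highest of all 10 and the other lay below the control oil/acetone libraries. In knockout the log2 difference between oil/acetone and water was 3.58 ± 1.05 (SE; limma, adjusted p = 0.0478), and it rests on 106 reads over 3 libraries against 4 reads over 2. That call stood just inside the threshold and held in 11 of 19 alternatives. It was lost when knockout oil/acetone replicate 1 (adjusted p = 0.0627), replicate 2 (0.128) or replicate 3 (0.109), knockout water replicate 1 (0.192) or replicate 2 (0.225), or control oil/acetone replicate 2 (0.0723) was left out. In control the difference was -1.24 (adjusted p = 0.646), and without control water replicate 2 it was 1.09.

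Genotypes did not overlap in Padi4 under either treatment. Under water, however, replicate 1 of the knockout and of the control group each held 3 reads, so their order comes from the scaling alone. The log2 difference between knockout and control was 2.04 ± 0.94 under oil/acetone, with adjusted p = 0.419 by limma. Under water it was -2.78 ± 1.15 with adjusted p = 0.963, so neither was called. Without control water replicate 2 the water difference was -0.45, and without replicate 1 it was -5.12. The interaction of genotype and treatment was 4.82 ± 1.48 (limma, adjusted p = 0.356). Leaving out either control water library moved the interaction strongly, to 7.16 without replicate 1 (adjusted p = 0.0230) and to 2.49 without replicate 2 (adjusted p = 0.852).

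Peptidylarginine deiminase 3 acts in the inner root sheath and hair shaft, where it modifies trichohyalin and S100A3, and its human variants cause uncombable hair (chr4:140785365-140810648, minus strand). Padi3 had 4.15, 53.1 and 12.2 normalised counts in knockout oil/acetone libraries, against 0 and 0 in knockout water libraries. A count of 0 was taken to allow 3 reads at most over the water group (1.53 normalised counts). The mean of the knockout oil/acetone libraries was 15.1 times this limit, and 5.34 times without knockout oil/acetone replicate 2. These ratios leave out the spread among the oil/acetone libraries, so they are not lower bounds of the difference. The fitted fold difference had a 95% interval of 0.90 to 265, which includes no change. Padi3 had 6.98, 3.82 and 0 in control oil/acetone libraries, against 0 and 208 in control water libraries. A single library, control water replicate 2, held 222 of its reads, and the other control water library held none. On the log2(value + 1) scale the difference in knockout was 3.95 ± 1.85 (adjusted p = 0.156), which limma called when control water replicate 1 (adjusted p = 0.0339) or replicate 2 (0.0376) was left out. In control it was -2.10 (adjusted p = 0.662), and 1.76 without control water replicate 2.

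Peptidylarginine deiminase 1 is the deiminase of the upper epidermis and works on filaggrin and keratin 1 (chr4:140812983-140845778, minus strand). Padi1 had 0 and 1.21 normalised counts in knockout water libraries, against 0 and 17.8 in control water libraries. These are 1 and 19 reads, and 19 of the 20 again came from control water replicate 2, so no difference between genotypes was tested. Padi2, the most widely expressed deiminase, also found in immune cells, was the highest of the deiminases in all 4 groups (chr4:140906344-140952586, plus strand). Padi2 had 186, 127 and 268 normalised counts in knockout oil/acetone libraries, against 169 and 166 in knockout water libraries. In control it had 171, 151 and 68.2 under oil/acetone, against 322 and 176 under water. The control treatments did not overlap, with a log2 difference of -0.98 ± 0.44 that was not called (adjusted p = 0.384), and the knockout treatments did (0.14, adjusted p = 0.844). In RPKM the deiminases ran from 2.22 (Padi2) through 0.39 (Padi4) to 0.38 (Padi3) in knockout oil/acetone libraries, against 1.74, 0.02 and 0 in knockout water libraries. In control oil/acetone libraries they were 1.36, 0.09 and 0.05, against 2.68, 0.58 and 1.69 in control water libraries, where the means of Padi4 and Padi3 rest on 1 library. The means of Padi3 and Padi4 lay below those of all 4 transglutaminases in each group, while Padi2 lay above Tgm2, which averaged 1.40, 1.43, 0.92 and 2.12 RPKM in the same order of groups.

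**Figure D2:**
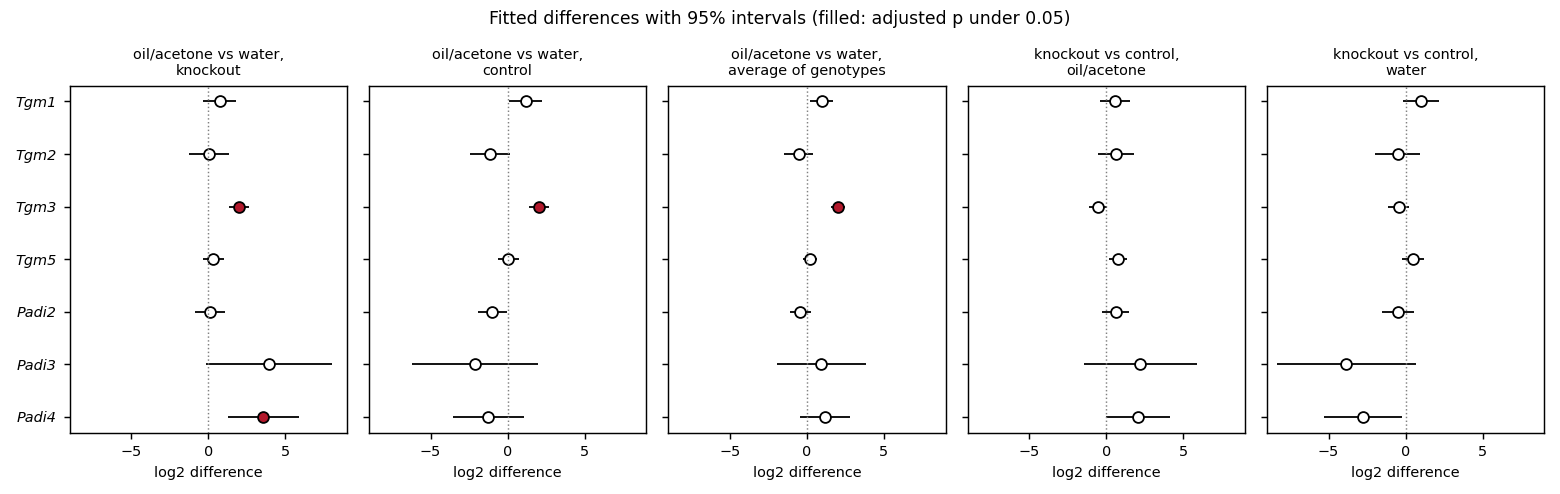
Fitted log2 differences (points, first group minus second) with 95% intervals (lines) of the 7 genes tested, in 5 comparisons, filled where the adjusted p was under 0.05. Tgm3 is filled in the 3 comparisons of oil/acetone with water and Padi4 in the knockout one, and the intervals of Padi3 are the widest.

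Knockout and control differed in no member under either treatment by the test. Limma called 0.0% of all genes under oil/acetone, under water and in the interaction, and edgeR called 0 in each. At an unadjusted p under 0.05 there were 1908, 795 and 1897 genes, and DESeq2 called 168, 6 and 169. Of the members, Padi4 and Tgm5 were higher in knockout without overlap under oil/acetone, where 8.57% of all genes were. Under water Tgm1 and Tgm5 were higher without overlap (17.1% of all genes) and Tgm3, Padi2 and Padi4 lower (17.6%). Tgm3 had log2 differences of -0.53 under oil/acetone (95% interval -1.10 to 0.04, adjusted p = 0.444) and -0.47 under water (95% interval -1.17 to 0.24, adjusted p = 0.963). Tgm1 had 0.57 (95% interval -0.38 to 1.52, adjusted p = 0.601) and 0.98 (95% interval -0.18 to 2.14, adjusted p = 0.963) in the same comparisons.

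Some markers of other cells varied with Padi3 or Padi4 across libraries, and others did not. In bulk RNA, fewer cells of a type and less RNA per cell cannot be told apart. The 13 markers of inner root sheath and hair shaft found in all files, of 18 listed, summed to 626, 2374 and 1117 normalised counts in knockout oil/acetone libraries, against 717 and 813 in knockout water libraries. They summed to 864, 543 and 595 in control oil/acetone libraries, against 692 and 9265 in control water libraries. In knockout 10 of the 13 tested were higher under oil/acetone and 3 lower, and 2 were called lower, against 6.69% of all genes. Krt32 averaged 66.1 in knockout oil/acetone and 143 in knockout water libraries, and Foxn1 182 and 332. The libraries with the 3 highest sums also had the 3 highest levels of Padi3, whose 3 closest genes across the 10 libraries were Krt71 (Pearson r = 0.970), Krt73 (0.941) and Krt27 (0.937), keratins of the inner root sheath. Without control water replicate 2 these were 0.948, 0.914 and 0.878, for genes already picked with that library included. Likeness was given for members with a group mean of 50 or more. Padi3 had such a mean in control water libraries alone (104, against 23.2 in knockout oil/acetone libraries), through replicate 2. Tchh (trichohyalin) and S100a3, substrates of deiminases in the hair that were singled out after their values were seen, had 3206 and 250.5 normalised counts in control water replicate 2. In the other 9 libraries Tchh had 97.8 to 767 and S100a3 3.82 to 56.7. The part of hair follicle cells in the Padi3 differences was not tested.

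Of 10 neutrophil markers, Elane, Mpo, Ly6g, Retnlg, Ngp, Camp and Mmp8 were listed in no file. The other 3 (Cxcr2, Csf3r and Ltf) summed to 37.4, 168 and 47.0 in knockout oil/acetone libraries, against 7.93 and 91.1 in knockout water libraries, and to 20.9, 44.9 and 101 in control oil/acetone libraries, against 1.91 and 360.3 in control water libraries. All 7 macrophage markers were found, and they summed to 1316, 1777 and 1369 in knockout oil/acetone libraries, against 841 and 865 in knockout water libraries, and to 692, 678 and 611 in control oil/acetone libraries, against 761 and 1553 in control water libraries. The 4 libraries with the highest macrophage sums were the 4 with the highest Padi4. In knockout 4 of the 7 were called higher under oil/acetone, against 6.74% of all genes. Adgre1 averaged 81.8 in knockout oil/acetone and 81.0 in knockout water libraries, and Cd68 97.6 and 104. The 6 Langerhans cell markers were highest in control water replicate 2 (40428) and knockout oil/acetone replicate 2 (33135), and lay at 9240 to 21358 in the other libraries. Among these, knockout oil/acetone replicates 1 and 3 had 19165 and 21358, near the knockout water libraries at 19694 and 18422. Endothelial markers summed to 419, 476 and 316 in knockout oil/acetone libraries, against 67.9 and 219 in knockout water libraries. They summed to 186, 75.5 and 109 in control oil/acetone libraries, against 154 and 247 in control water replicates 1 and 2. The 4 libraries with the highest endothelial sums were thus the same 4 as for macrophage markers and Padi4. The part of these cells in the Padi4 difference was not tested. The genes closest to Padi4 across libraries were Ifit2 (r = 0.957), Cdk5 (0.941) and Sdf2l1 (0.938). Without control water replicate 2 these were 0.967, 0.959 and 0.913, again for genes picked with that library included. Padi4 too reached a group mean of 50 in control water libraries alone (50.2, against 33.6 in knockout oil/acetone libraries), through replicate 2. Padi3 and Padi4 correlated with each other at r = 0.895, and at 0.835 without that library, and the 10 libraries share treatment, genotype and replicate 2 of the control water group as sources of that value.

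**Figure D3:**
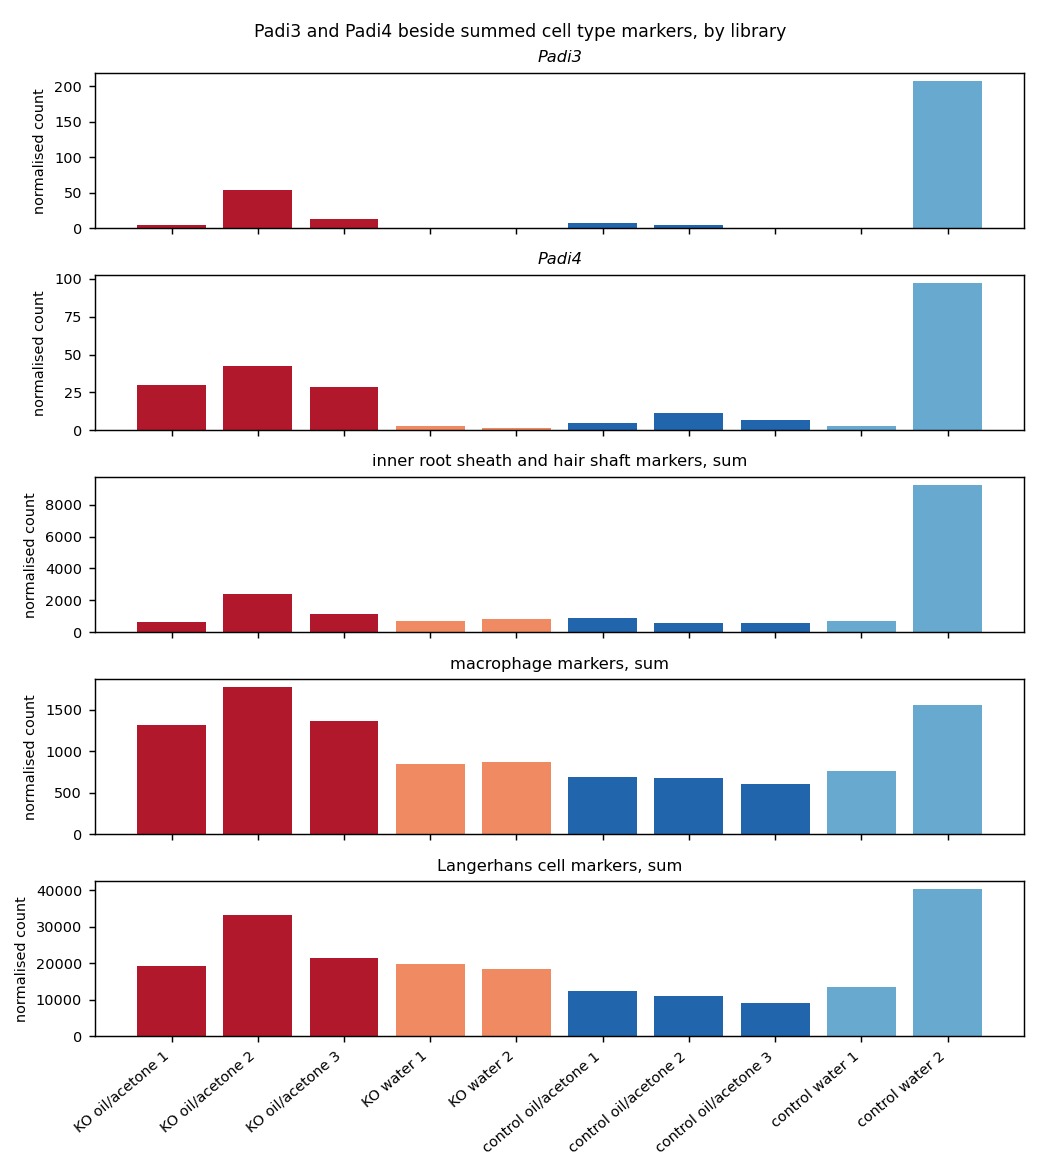
Normalised counts of Padi3 and Padi4 and summed normalised counts of hair, macrophage and Langerhans cell markers in each of the 10 libraries (bars from 0). Control water replicate 2 has the highest bar in 4 of the 5 panels, with 208 for Padi3 and 9265 for the hair markers, and knockout oil/acetone replicate 2 is second in those 4 and highest for macrophage markers (1777).

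The remaining likeness values set the transglutaminases apart from one another. Over the 10 libraries Tgm1 was closest to Trex2 (r = 0.976), a DNA exonuclease of stratified epithelia, then Psmd2 (0.974) and Nkpd1 (0.956). Tgm3 was closest to Fgfr1op2 (0.944), the Y-linked Kdm5d (0.942) and Fancd2 (0.941). Tgm5 was closest to Ank (0.958), Ndrg2 (0.957) and Ttc39c (0.952), and Tgm2 to Sh3tc1 (0.915), Pvt1 (0.883) and Tlr2 (0.844). Padi2 was closest to Pik3cg (0.947), Ikzf1 (0.930) and Nlrc3 (0.927), and Ikzf1 and Pik3cg are genes of blood cells. The 7 T cell markers summed to 5339, 4634 and 7657 normalised counts in knockout oil/acetone libraries, against 7124 and 6453 in knockout water libraries. They summed to 8704, 4381 and 3141 in control oil/acetone libraries, against 15330 and 8117 in control water libraries. The highest and lowest of these sums lay in the libraries with the highest and lowest Padi2, and the part of T cells was not tested. The highest correlations among the members themselves after Padi3 with Padi4 were Tgm1 with Tgm5 (0.632) and Tgm2 with Padi3 (0.536), and without control water replicate 2 these were 0.635 and 0.236. Tgm1 with Padi3, at 0.357 over all 10 libraries, was at 0.697 without it.

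Of the other genes of both families, Tgm7 and F13a1 were called in knockout. Tgm7, the neighbour of Tgm5 on chromosome 2, fell to 42.6, 25.2 and 40.4 normalised counts in knockout oil/acetone libraries, against 194 and 196 in knockout water libraries, a log2 difference of -2.44 ± 0.46 (limma, adjusted p = 0.0161). In control it had 51.9, 65.9 and 177 under oil/acetone, against 146 and 160 under water (-0.85, adjusted p = 0.459). F13a1, the catalytic subunit of coagulation factor XIII made by macrophages and platelets, rose to 81.0, 66.6 and 21.6 in knockout oil/acetone libraries, against 0.88 and 6.07 in knockout water libraries (3.78 ± 0.74, adjusted p = 0.0169). In control F13a1 had 27.9, 22.9 and 31.9 under oil/acetone, against 7.65 and 27.2 under water (0.86, adjusted p = 0.652). Tgm7 and F13a1 so went in opposite directions to each other, and both calls were lost without knockout oil/acetone replicate 2 or without either knockout water library, and the Tgm7 call also without knockout oil/acetone replicate 3. Averaged over genotypes Tgm7 (-1.64, limma adjusted p = 0.0170) and F13a1 (2.32, adjusted p = 0.0252) were called too, against 12.8% of all genes. The averaged calls did not hold in every alternative. Tgm4 was not called in any comparison. Tgm6, next to Tgm3, was at 0 in the knockout water and control oil/acetone libraries and in control water replicate 1, and had 105 normalised counts in control water replicate 2. Epb42 was listed in the water files alone, and F13b and Padi6 in none.

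Of 26 tested substrates that transglutaminases weld into the envelope, 16 were called higher and 1 lower under oil/acetone on average, with a median log2 difference of 1.45 against -0.02 for all genes. In knockout 12 were higher and 2 lower (median 1.89 against 0.01), and in control limma called 0 (median 1.48 against 0.00). In control DESeq2 called 11 and the fit with a replicate block 8, all higher, and limma called 2 without knockout oil/acetone replicate 1 or replicate 2 and 3 without control oil/acetone replicate 1. Over all genes 6.88% were called higher and 5.92% lower on average, and 6.74% and 6.69% in knockout. Flg (profilaggrin) averaged 5084 ± 3943 normalised counts in knockout oil/acetone libraries, against 236 ± 63.9 in knockout water libraries, and on average over genotypes its log2 difference was 3.78 ± 0.41 (adjusted p = 0.00164). Lce1g, a late cornified envelope gene, rose by 3.74 ± 0.42 (adjusted p = 0.00189) and Sprr1b, a small proline-rich crossbridge of the envelope, by 1.84 ± 0.24 (adjusted p = 0.00443). The genes called lower were Ppl (periplakin) on average (-0.58, limma adjusted p = 0.0379), and Ppl (-1.06) and Scel (sciellin, -0.72) in knockout. Both make scaffold proteins of the envelope and were named after their values were seen. In control Ppl averaged 14019 ± 1525 normalised counts under oil/acetone, against 15198 ± 4402 under water (SD). Without knockout water replicate 1 the averaged count of called genes was 8, without replicate 2 it was 7, and without control water replicate 1 it was 7. The knockout count was 0 without either knockout water library and 4 without knockout oil/acetone replicate 2.

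Of 8 deimination substrates 3 rose on average and in knockout (Flg, Hrnr and Krt1), with a median of 0.62 on average against -0.02 for all genes. Flg and Hrnr were also counted among the transglutaminase substrates above. Over all genes 6.88% were called higher on average and 6.74% in knockout, for this list and those that follow. In control limma called 0 in each of these lists (0.0627% of all genes), while DESeq2 called 4 deimination substrates there, 3 higher and 1 lower. Hrnr (hornerin) rose by 3.16 ± 0.45 (adjusted p = 0.00519) and Krt1, the keratin of suprabasal cells, by 1.76 ± 0.26 (adjusted p = 0.00563), and the averaged count was 3 without any one library. The knockout count was 0 without either knockout water library. Among 9 genes that process filaggrin, Casp14, a caspase of the cornifying layer, rose by 1.95 ± 0.31 (adjusted p = 0.00738) and Blmh, which degrades filaggrin after deimination, by 1.48 ± 0.27 (adjusted p = 0.0133), while Klk7 had 1.39 (adjusted p = 0.0883). That count of 2 was 0 without knockout water replicate 1 and 5 without control water replicate 2. None of 4 proteases and inhibitors tied to transglutaminase activation was called on average: Ctsd had 0.61 (adjusted p = 0.0922), Cst6 0.91 (adjusted p = 0.151) and Ctsl -0.46 (adjusted p = 0.182). Of 10 genes that build the lipid envelope, Sdr9c7 was called on average (1.60 ± 0.42, adjusted p = 0.0377), a call lost without any one of 6 libraries, and Pnpla1 (0.85, adjusted p = 0.0569) and Alox12b (0.77, adjusted p = 0.106) were not.

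**Figure D4:**
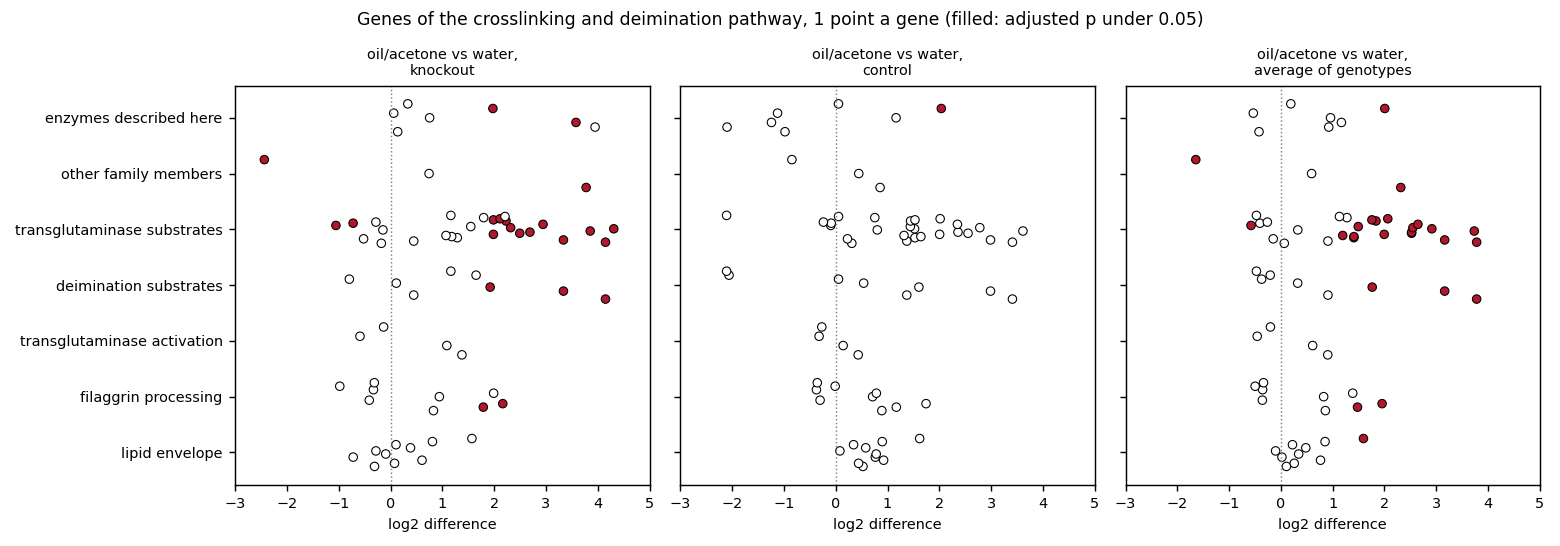
Log2 difference between oil/acetone and water for each gene (points) of the 2 enzyme families and of 5 pathway lists, in knockout, in control and averaged over genotypes, filled where the adjusted p was under 0.05. Of the transglutaminase substrates 16 filled points lie above 0 and 1 below in the averaged panel, and in the control panel the single filled point is Tgm3.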

How the data were processed

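RNA-seq values of 10 libraries were used, 1 file each, and the values that the authors deposited are a normalised read signal per gene. The tools were Trimmomatic 0.38, DESeq2 1.26.0 and featureCounts 2.0.0 on GRCm38 (mm10), per the submitters' processing notes. For the aligner, the annotation release and whether strand was used, the answer is not given in the sources used here. All values (100%, tolerance 0.1) were whole multiples of 1 step per library, which gave the reads. The limit of 3 reads covers counting error only. The 95% intervals come from limma and rest on the spread among libraries.

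Symbols and exon lengths came from the GENCODE annotation of GRCm38, which held all 17983 identifiers, and RPKM used merged exons and recovered reads. Promoters came from RefSeq (GRCm38.p6). Genes listed in all 10 files (15987) were divided by median-of-ratios factors (0.995 to 1.004) and kept at 10 or more in at least 2 libraries, which left 15958. On the log2(value + 1) scale, limma 3.58.1 tested each difference (R 4.3.3, with a trend) in 1 model of 4 group means, two-sided, with Benjamini-Hochberg adjustment over all genes and a call under 0.05. This scale understates changes of low genes. The averaged comparison weighs both genotypes equally.

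The members and gene lists were chosen with earlier results of these data known. Named pathway genes are the 3 of each list with the lowest unadjusted p in the averaged comparison. Likeness is Pearson's r of log2(value + 1), 3 genes a member, among genes with a group mean of 50 or more. Members needed such a mean too, which Padi3 and Padi4 had through control water replicate 2 alone. Alternatives were equal totals, the values as deposited, pseudocounts of 0.5 and 10, no filter, a filter at 50, the groups of a comparison alone, edgeR 4.0.16 and DESeq2 1.42.0 on the reads, a replicate block and leaving out each library. Those for pathway lists, for the correlations and for the limit of Padi3 were added after seeing the data. The test was checked on simulated data.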

Additional observations from a re-analysis of the deposited data

Results flagged for a closer look

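Padi4 lay on opposite sides between genotypes under the 2 treatments, without overlap in normalised counts, although neither difference was called. Under oil/acetone the knockout libraries had 28.2 to 42.3 normalised counts and the control libraries 4.99 to 11.5. Under water the knockout libraries had 1.21 and 2.64 and the control libraries 2.87 and 97.6. Replicate 1 of the knockout and of the control water group each held 3 reads, so their order comes from the scaling alone. The water difference thus rests on 1 control library. The interaction was 4.82 on the log2 scale (limma, adjusted p = 0.356) and was not called.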

How the results depend on the processing

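Of 816 values of single members under alternative settings, 766 kept their direction and their side of the threshold, 22 lost a call, 9 gained one and 19 turned, none of the 19 a called value in either setting. Under oil/acetone in knockout the count of called members was 1 with a pseudocount of 10, with a filter at 50 and with edgeR, and 0 to 3 when single libraries were left out. In control it was 0 with equal totals, with a filter at 50, with the groups of the comparison alone and with edgeR, and 0 to 1 without single libraries. On average it was 2 with DESeq2 and 1 to 4 without single libraries, 4 being without control water replicate 2 (Tgm1, Tgm3, Padi3 and Padi4). In the interaction it was 1 with DESeq2 (Padi4, 6.78, adjusted p = 0.00686) and 0 to 1 without single libraries. The 2 genotype comparisons had 0 in each alternative run.

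Log2 differences turned for Tgm2 in knockout (-0.11 with edgeR, -0.15 with DESeq2, -0.75 to 0.87 without single libraries), for averaged Padi3 (-0.19 with a pseudocount of 10, -1.004 to 2.85 without single libraries) and for the interaction of Tgm3 (0.10 with equal totals, -0.31 to 0.24 without single libraries). Without single libraries alone they turned for Padi2 in knockout (-0.13 to 0.41), for Tgm5 (-0.23 to 0.33), Padi3 (-5.96 to 1.76) and Padi4 (-3.58 to 1.09) in control, for Tgm2 between genotypes under water (-1.34 to 0.28) and for the interaction of Tgm1 (-0.99 to 0.16). The causes were not tested.

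Replicate numbers are shared across groups. Same-numbered libraries correlated at -0.10 to 0.45 in their deviations, mostly above 0. Differently numbered ones correlated at -0.45 to 0.35, mostly below 0. In groups of 2 libraries the 2 deviations mirror each other, so this check is weak. The numbers are neither shown to pair the libraries nor shown not to. With a replicate block the members called were 2 in knockout, 1 in control, 1 on average and 0 in the other comparisons, as without it, and the block moved the count of all genes to 58 in control, against 10 without it, and to 2766 in knockout, against 2143. Counts over all genes ran from 9 to 3141 in knockout, 6 to 470 in control and 164 to 4155 on average when single libraries were left out. DESeq2 called 3610, 352 and 3591 and edgeR 1930, 7 and 2001 in the same comparisons. The groups of the comparison alone were not run for the averaged comparison and the interaction, which use all groups. Padi1, Padi3 and Padi4 are limited by depth, with fewer than 110 reads in each group except Padi3 in control water libraries.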
